A study of Mus musculus with 2 samples.

Results

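Proximal luminal cells are the luminal epithelial cells that line the mouse prostate ducts where they join the urethra. In the library from the proximal and periurethral region, 472 such cells were found among 3709 kept cells, or 12.7% (exact 95% interval 11.7% to 13.8%), and among 6565 barcodes in the whole series. The cells were chosen by their own counts. A kept cell, with at least 500 genes and at most 10% mitochondrial counts, had to hold at least 5 molecules of Psca, Krt4 and Ppp1r1b together, making up at least 0.1% of its counts. Krt5, Krt14 and Krt15 together had to stay under 0.05%, the secretory genes Sbp and Spink1 at or under 5%, Tgm4 under 0.5% and Msmb under 1%. Cells with at least 3 molecules of Ly6d and at least 1 of Aqp3, Upk1b, Upk3a or Krt13 were left out as periurethral in type.

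The series holds single-cell RNA sequencing of dissociated mouse prostate, 1 library per dissected region: the proximal ducts with the periurethral tissue, and the ventral lobes. All groups share a wild-type genotype, male sex and the C57BL6 strain, and neither the age nor the number of mice per library is given in the sources used here. Kit version 3 was used for the proximal and kit version 2 for the ventral tissue, so kit and region cannot be told apart. With 1 library per region no difference has a replicate check, no test was made, and every interval is an exact 95% interval for counting error only. Values are unique molecular identifiers (UMIs, each counting 1 captured RNA molecule) summed over a group of cells and divided by all UMIs of that group, on the usual CPM scale. The 472 cells held from 960 to 193972 UMIs, with a median of 19763, and a median of 4.74% mitochondrial UMIs.

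Prostate epithelium has an outer basal layer that rests on the basement membrane and an inner luminal layer. Distal luminal cells secrete the proteins of prostatic fluid, whereas luminal cells of the proximal ducts make little of these and are known for the surface proteins Psca and Ly6a (Sca-1). Cells of the proximal ducts have been studied as a source of progenitors that withstand androgen withdrawal.

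The marker rule moved through the library in unequal steps. The marker minimum left 1250 of the kept cells, and the basal keratin limit then removed 757 of them. The limits on Sbp with Spink1, on Tgm4 and on Msmb brought the number to 485, and the periurethral exclusion removed the last 13. In the members, Psca, Krt4 and Ppp1r1b together made up between 0.101% and 1.91% of a cell's UMIs, with a median of 0.288%. Among the 872 cells that only the marker minimum left out, the highest share was 0.209%, in a cell with under 5 of these UMIs, and 542 of them had none of the 3 RNAs. At the other limit, the member with most basal keratin had 0.0495% and the cell just outside had 0.0501%.

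Of the 3 genes that chose the cells, Psca, a small GPI-anchored protein of the Ly6 family, was by far the most abundant at 2968 CPM. Psca was found in 469 of 472 cells, with a median of 53 UMIs and a highest count of 1097. Krt4, a keratin of non-cornified stratified epithelia, stood at 201 CPM and was seen in 384 cells. Ppp1r1b, a regulator of protein phosphatase 1, stood at 181 CPM and was seen in 418 cells. Psca therefore carried most of the marker minimum. On GRCm38 (GENCODE M21), Psca lies at chr15:74714839-74717069 on the plus strand, Krt4 at chr15:101918535-101924735 on the minus strand and Ppp1r1b at chr11:98348404-98357796 on the plus strand. After each cell was thinned to 5000 UMIs, the correlations of the 3 genes were read across 449 cells. The cells were chosen by the sum of these genes, which shapes how the genes vary together inside the group, so nothing is read from the values. Pearson's r was -0.05 for Psca with Krt4, -0.13 for Psca with Ppp1r1b and 0.08 for Krt4 with Ppp1r1b. Such correlations describe cells of 1 library and have no test.

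The label could be checked against the markers that the rule did not use. Clu, the secreted chaperone clusterin, stood at 5171 CPM (5134 to 5208) in the members, 171 in basal cells and 190 in secretory luminal cells, and was found in 471 of 472 members. Ly6a was at 876 CPM in the members, 388 in basal and 13.2 in secretory cells, and the gene was also high in fibroblasts of the same library at 722 CPM. Wfdc2, a secreted whey-acidic-protein domain inhibitor, was at 645 CPM against 153 and 18.3. Krt7 was at 615 CPM against 170 and 10.3, and Krt19 at 2909 CPM against 446 and 560.4. These 5 markers were higher in the members than in both other epithelial groups. Not every proximal luminal marker was: Pigr, which carries antibodies across epithelium, was at 46.2 CPM against 182 CPM in secretory cells, and the calcium channel Trpv6 at 1.11 CPM against 23.4 CPM. The basal comparison used 832 cells with at least 5 UMIs and 0.1% of basal keratins, within the limits on Sbp with Spink1, Tgm4 and Msmb. The secretory comparison used 633 cells past a limit on Sbp with Spink1, Tgm4 or Msmb, with basal keratins under 0.05%. Both groups also had to hold Psca, Krt4 and Ppp1r1b together under 0.05%, so cells between these groups and the members were left out.

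**Figure D1:**
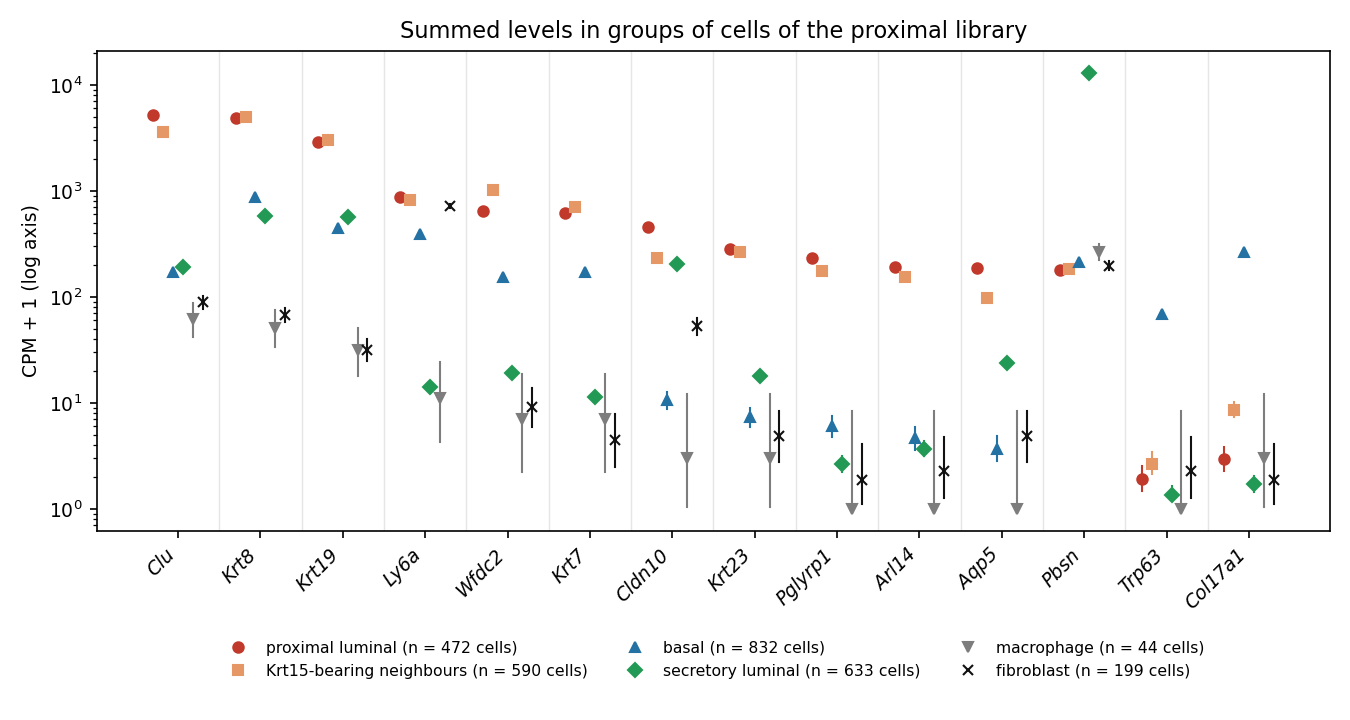
Summed levels of 14 genes in 6 groups of cells of the proximal library, as CPM plus 1 on a log axis, with bars for exact 95% Poisson intervals. Clu, Krt23, Pglyrp1, Arl14 and Aqp5 were highest in the proximal luminal cells and their Krt15-bearing neighbours, while the secretory gene Pbsn was no higher there than in macrophages or fibroblasts.

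Markers of macrophages, T cells and fibroblasts were low but not all at 0. The macrophage genes C1qa, C1qb and C1qc reached 3 UMIs in 0 of 472 cells, which allows up to 0.778% of cells with that many UMIs, and 1 cell held at least 3 UMIs of the T cell genes Cd3d, Cd3e and Cd3g. The 11 macrophage markers summed to 32.3 CPM in the members and 16028 CPM in macrophages. The 10 fibroblast markers summed to 247 CPM against 35346 CPM in fibroblasts. Of the endothelial markers Cdh5 and Kdr were each at 0.416 CPM and Cldn5 was at 0, whereas Pecam1, an adhesion protein best known from endothelium, was at 373 CPM (363 to 383) and was seen in 84.3% of the cells. Pecam1 was lower in basal cells, at 117 CPM, in secretory cells, at 112 CPM, and in fibroblasts, at 221 CPM. The seminal vesicle genes Svs4 and Svs5 stood at 31.6 and 44.7 CPM, below the 36.3 and 92.8 CPM in macrophages, which do not make them. Sbp at 721 CPM, Spink1 at 364 CPM and Pbsn at 178 CPM were likewise below their macrophage levels of 1154, 609 and 264 CPM. How much of these counts was free RNA was not tested. The 15 urothelial and squamous genes outside the rule summed to 1473 CPM in the members, 706 CPM in basal and 776 CPM in secretory cells. Sprr1a, a precursor of the cornified envelope, gave 800 CPM of the members' sum and the transcription factor Foxq1 316 CPM. Of 12 measured against basal cells, 2 were at least 4-fold higher and 1 lower, where 0.854% and 1.33% of all genes were. Their median difference was -0.21, against 0.04 over all genes. Against secretory cells 3 of 10 were at least 4-fold higher and 0 lower, where 2.67% and 0.839% of all genes were. The urothelial gene Upk1a was at 106 CPM, with 6.13 CPM in basal and 172 CPM in secretory cells.

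The genes that stood furthest above both other epithelial groups were found by comparing each gene with the higher of its levels in basal and secretory cells. Differences are log2 ratios of CPM plus 10, and the genes of the rule were left out. Clu led with a difference of 4.70. Pglyrp1, a peptidoglycan-binding antibacterial protein, followed at 232 CPM (225 to 240), against 5.02 CPM in basal and 1.63 CPM in secretory cells, a difference of 4.01. Arl14, a small GTPase of the ARF-like family, had 190.1 CPM against 3.62 and 2.71, a difference of 3.88. Both were at 0 CPM in macrophages and at 0.865 and 1.30 CPM in fibroblasts. Pglyrp1 was found in 91.3% of the members and Arl14 in 60.6%, so Arl14 was the patchier of the pair.

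Spns2, a sphingosine-1-phosphate transporter, was at 192 CPM against 5.02 and 4.69 CPM. Tspan8, a tetraspanin, was at 953 CPM against 75.0 and 60.1 CPM, with 429 CPM in fibroblasts. Krt23, a type I keratin, was at 282 CPM against 6.32 and 16.9 CPM. These 3 genes were found in 83.9%, 98.3% and 68.0% of the cells. Aspa, which splits N-acetylaspartate, was at 142 CPM, and Acsm3, a medium-chain acyl-CoA synthetase, was at 144 CPM. Gsta3, a glutathione transferase, was at 265 CPM, and the keratin Krt80 at 103 CPM. The long noncoding RNA Wincr1 was at 119 CPM. Aqp5, the apical water channel of secretory glands, was at 188 CPM against 2.69 CPM in basal and 22.8 CPM in secretory cells. Itgae, the integrin subunit that marks lymphocytes within epithelia, was at 70.8 CPM and was seen in 41.3% of the members. The remaining genes of the 20 were Tstd1, Smim6, Scara3, Sprr2a3 (a member of a family of near-identical genes, so its count is uncertain), Bex1, Slc25a48 and Rhpn2, with levels between 69.7 and 309 CPM. Of these, Sprr2a3 drew 21.01% of its UMIs from 1 cell, against at most 3.68% for the other 19 genes.

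Against basal cells, 108 of 12642 genes with at least 50 UMIs were at least 4-fold higher in the proximal luminal cells (0.854%) and 168 were at least 4-fold lower (1.33%). Clu had the highest difference among the named genes, at 4.84, and Cldn10 followed at 4.57. Cldn10 had 455 CPM against 9.57 CPM, a 47.6-fold ratio (39.2 to 58.4), and Cldn3 had 536 CPM against 20.8 CPM, a 25.8-fold ratio (22.5 to 29.5). Both are sealing or pore-forming proteins of tight junctions. Tspan1 was at 1229 CPM against 69.0 CPM. Among genes that were lower in the members, the lipid carrier Apoe had 26.3 CPM against 5993 CPM in basal cells. Lgals7 had 4.44 CPM against 1214 CPM, and the keratin Krt17 2.43 CPM against 462 CPM. Col17a1, the hemidesmosome collagen, was at 1.94 CPM against 266 CPM, and Lcn2, an iron-sequestering acute-phase protein, at 1.80 CPM against 175 CPM. Of 14 basal markers outside the rule that were measured, 9 were at least 4-fold lower, among them Trp63, Lamb3, Lama3, Jag2 and Nrg1.

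Against secretory luminal cells, 359 of 13465 genes were at least 4-fold higher (2.67%) and 113 at least 4-fold lower (0.839%). Plaur, the urokinase receptor, had 1919 CPM against 31.5 CPM, a 60.9-fold ratio (57.1 to 64.9). S100a6, a calcium-binding protein, had 4499 CPM against 88.3 CPM, and Lgals3, galectin-3, had 2052 CPM against 45.1 CPM. Thbs1, thrombospondin-1, had 2188 CPM against 48.6 CPM. Thsd7a had the widest ratio of the 10 leading genes, with 407 CPM against 2.30 CPM, or 177-fold (140 to 227). The secretory products Pate14, Defb1, Wfdc3 and Pbsn were lowest among the named genes, with differences from -6.16 to -6.09. Pbsn, the androgen-driven protein probasin, stood at 178 CPM against 13023 CPM. Ren1, which encodes renin, was at 1.94 CPM against 391.5 CPM, and the metallothionein Mt1 at 194 CPM against 5253 CPM.

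**Figure D2:**
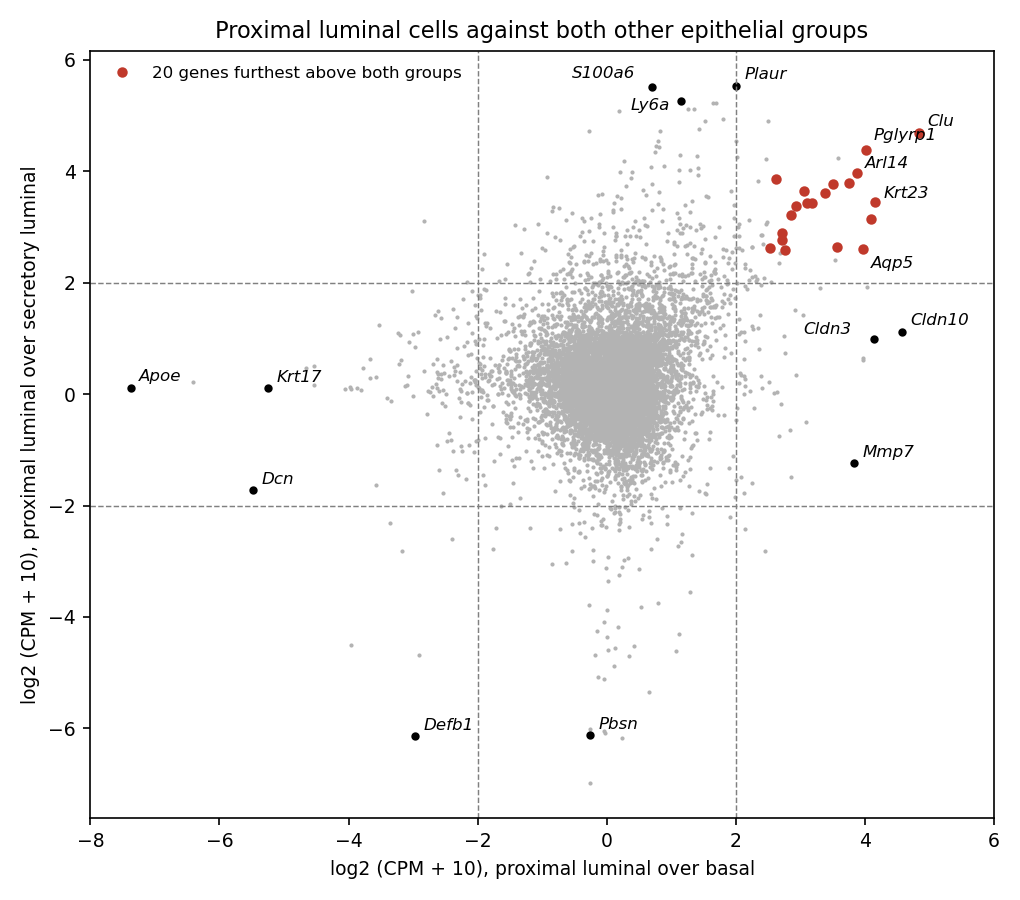
Each point is a gene with at least 50 UMIs in both comparisons, placed by its log2 ratio of CPM plus 10 against basal cells (x axis) and against secretory luminal cells (y axis). Dashed lines mark 4-fold, and the 20 red genes, led by Clu, Pglyrp1 and Arl14, lie above 4-fold on both axes.

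Lists of related genes differed to unequal degrees. Of 22 further proximal luminal markers, 8 of 21 measured were at least 4-fold higher than in basal cells, against 0.854% of all genes, and 15 of 22 than in secretory cells, against 2.67%. Their median differences were 1.62 and 2.76, against 0.04 and 0.09 over all genes. These markers come from work on such cells and were picked with earlier results of these data known, so they are not independent evidence.

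Keratins of simple epithelium were abundant. Krt8 was at 4900 CPM against 879 CPM in basal and 581 CPM in secretory cells, and its partner Krt18 at 2143 CPM against 781 and 1276 CPM. Of 10 measured keratin genes outside the rule, Krt8, Krt19, Krt23 and Krt80 were at least 4-fold above basal cells, and these 4 with Krt6a and Krt7 at least 4-fold above secretory cells. The shares over all genes were 0.854% and 2.67%. Krt16 and Krt17 were at least 4-fold below basal cells, where 1.33% of all genes were.

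Tight junction genes differed by which group was compared. Cldn3, Cldn7 and Cldn10 were at least 4-fold above basal cells among 17 measured genes, against 0.854% of all genes, and Cldn1, at 0.347 CPM against 94.7 CPM, was at least 4-fold below, as were 1.33% of all genes. Against secretory cells 3 of 16 were at least 4-fold higher, among them Cldn4 and Cldn7, against 2.67% of all genes. Cldn4 was the most abundant, at 2089 CPM against 1004 CPM in basal and 357 CPM in secretory cells.

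Of 20 measured genes of salt and water transport, 8 were at least 4-fold higher than in secretory cells and 0 lower, where 2.67% and 0.839% of all genes were. Among them were the epithelial sodium channel subunit Scnn1a, the sodium pump subunit Atp1b1 with the regulators Fxyd3 and Fxyd4, the water channel Aqp5, the potassium channel Kcnn4 and the chloride channel Ano1. Scnn1a had 88.6 CPM against 3.73 CPM, and Kcnn4 had 106 CPM against 4.50 CPM. The median difference of the 20 genes was 1.44, against 0.09 over all genes. Against basal cells 2 of 20 were at least 4-fold higher, where 0.854% of all genes were, Aqp5 and the cotransporter Slc12a2, the latter with 1013 CPM against 142 CPM.

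Of the detoxification enzymes, 6 of 18 were at least 4-fold above secretory cells, against 2.67% of all genes, and 2 of 19 above basal cells, against 0.854%. Gsta4 had 475 CPM in the members, 110.0 CPM in basal and 15.4 CPM in secretory cells. Cyp2f2, a cytochrome P450 best known from airway club cells, had 514.2 CPM against 317 and 21.2 CPM. Cbr2, a carbonyl reductase, had 714 CPM against 245 and 159 CPM.

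Of 31 measured lineage transcription factors, 7 were at least 4-fold above secretory cells, against 2.67% of all genes, among them Meis2, Klf4, Klf5, Foxq1, Runx1 and Runx2. Klf5 stood at 600.0 CPM against 31.3 CPM and Runx1 at 357 CPM against 32.7 CPM. Among the 2 that were at least 4-fold lower was Hoxb13, at 50.4 CPM against 297 CPM, where 0.839% of all genes were lower. Against basal cells 0 of 32 factors were at least 4-fold higher, a share near the 0.854% of all genes, and 3, Trp63, Sox4 and Tfap2c, were lower, against 1.33% of all genes. Foxa1 had 156 CPM in the members, 149 CPM in basal and 98.8 CPM in secretory cells. Tmprss2, a transmembrane serine protease, had 151, 59.3 and 94.7 CPM.

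Among signalling genes, the EGF receptor ligands Hbegf and Areg were at 1508 and 107 CPM, against 175 and 4.08 CPM in secretory cells. Against basal cells 0 of 11 measured EGF family genes were at least 4-fold higher, near the 0.854% of all genes. At least 4-fold lower was 1 of the 11, where 1.33% of all genes were. Nrg1 was low at 53.0 CPM, against 638 CPM in basal and 302 CPM in secretory cells. The Notch ligands Jag1 and Jag2 were at 3.53 and 1.18 CPM, against 47.7 and 63.2 CPM in basal cells, while the receptor Notch1 was at 87.3 CPM in the members and 75.4 CPM in basal cells. Of 21 measured Wnt and TGF-beta genes, 0 were at least 4-fold above or below basal cells, near the 0.854% and 1.33% of all genes. Their median difference was -0.92, against 0.04 over all genes. Wnt4 was at 167 CPM against 85.4 and 27.8 CPM in basal and secretory cells. Of 10 measured chemokine genes, Cxcl1, Cxcl2, Cxcl10, Cxcl12 and Cxcl14 were at least 4-fold lower than in basal cells, against 1.33% of all genes. Cxcl17 was at least 4-fold higher, at 68.8 CPM against 5.67 CPM, against 0.854% of all genes. Proliferation genes were scarce, with Mki67 at 3.26 CPM, and 14 cells, or 2.97% (1.63% to 4.93%), held at least 3 UMIs of Mki67 and Top2a. The median depth of those cells was 45666 UMIs.

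The basal keratin limit cut through a run of similar cells. Of the 757 cells it removed, 712 had Krt5 and Krt14 under 0.05%, and 590 of those met all other limits. Krt15 made up 99.1% of the basal keratin UMIs of these 590 neighbours, a share that the choice by low Krt5 and Krt14 favours, and 95.7% of those of the members. Krt15, a keratin of basal and progenitor cells in many epithelia, was itself found in 340 of the 472 members, while 391 members had no UMI of Krt5 or Krt14. Looking at these neighbours was decided after the counts at the limit had been seen. Depth was alike, with a median of 20012 UMIs in the neighbours and 19763 in the members.

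Between members and neighbours, 0 of 12737 genes were at least 4-fold higher in the members (0%) and 1 was at least 4-fold lower (0.00785%). That gene was Clca1, a secreted regulator of chloride channels, with 13.5 CPM (11.7 to 15.6) against 116 CPM. Leading genes on the members' side were Sbspon at 310 CPM against 138 CPM, Mia at 189 CPM against 89.2 CPM, Cldn10 at 455 CPM against 231 CPM and Aqp5 at 188 CPM against 97.4 CPM. Cd52 and Prlr also ranked there, but 55.8% and 54.3% of their UMIs came from 1 cell each. On the neighbours' side after Clca1 came Cxcl2, Crybg2, Ccnd2, Cxcl17, Nupr1, Cxcl1 and Upk1a.

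When members and neighbours were divided into 4 bins by their basal keratin share, several genes were ordered along the bins. Clu was at 5171, 4272, 3652 and 2112 CPM from the members to the cells with 0.3% or more. Cldn10 was at 455, 329, 209 and 86.2 CPM, and Sbspon at 310, 191, 124 and 66.1 CPM. Clca1 went the other way, at 13.5, 64.5, 112 and 235 CPM, as did Nupr1 at 420.1, 549, 830.1 and 1662 CPM. Ivl, which encodes the cornified-envelope protein involucrin, was at 1.18, 0.858, 4.66 and 165 CPM, so it was high in the last bin alone. Krt5 itself was at 2.84, 5.84, 6.62 and 25.9 CPM, and Trp63 at no more than 2.56 CPM in any bin, against 67.7 CPM in basal cells. Since the bins were made from Krt5, Krt14 and Krt15 together, the order of these keratins is partly given by how they were made. The median depth of the bins was 19763, 26262, 20998 and 16003 UMIs, and the part of depth was not tested. Without Krt15 in the limit, 1062 cells would have been chosen, 28.6% of the kept cells.

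**Figure D3:**
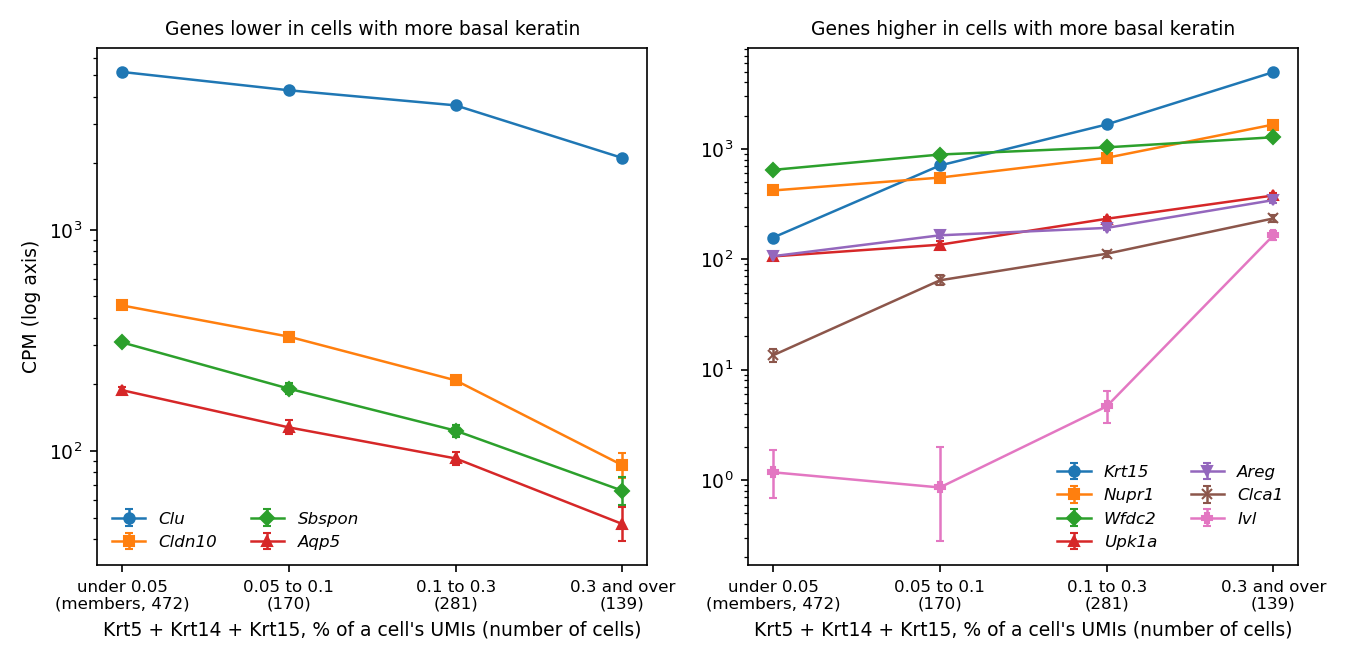
CPM on a log axis in members and Krt15-bearing neighbours, by the share of Krt5, Krt14 and Krt15 in a cell's UMIs, with exact 95% Poisson intervals and the number of cells in each bin. Clu, Cldn10, Sbspon and Aqp5 were lower and Clca1, Nupr1, Areg and Upk1a higher in cells with more basal keratin, and Ivl stood out in the last bin of 139 cells.

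A small number of genes stood out by their spread between cells of the group. Spread was measured as the Fano factor, the variance of UMIs per cell divided by their mean, which is 1 under sampling alone. It was taken in the 449 cells with at least 5000 UMIs, after thinning to that number. At the same relative spread the factor is larger for genes with more UMIs, so it favours abundant genes. Of 7702 genes with a mean of at least 0.05 UMIs, 276 had a Fano factor of at least 2, 139 of at least 3 and 32 of at least 10, and the median was 1.08. Of the 25 named genes with the highest values, 15 drew over 50% of their thinned UMIs from 5 cells.

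Those rare cells fell into several kinds. One cell held 97.0% of the haemoglobin UMIs of Hba-a1, Hba-a2 and Hbb-bs. Another held 41.5% of the UMIs of Prol1, a proline-rich gland protein. In 8 cells, 1.69% (0.735% to 3.31%), there were at least 10 UMIs of the secretory-cell genes Prlr, Cd52, Rnase1 and Pate9, and they held 79.4% of the group's UMIs of these genes. In 7 cells, 1.48% (0.598% to 3.03%), there were at least 10 UMIs of the fibroblast genes Dcn, Mgp, Vim and Col3a1, with 74.3% of those UMIs. No doublet caller was applied, and the part of doublets in these cells was not tested.

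Other genes were uneven over many cells. Shares of cells past a UMI number depend on depth, and the cells past it here had medians of 32160 UMIs for Wfdc2, 36512 for Mmp7 and 33808 for the interferon genes, against 19763 in the group. Wfdc2 had at least 10 UMIs in 220 cells, or 46.6%, and none in 55 cells, and its Fano factor was 12.9. Mmp7, a matrix metalloproteinase, had at least 10 UMIs in 81 cells, none in 150 cells and a Fano factor of 29.8, but 1 cell held 1418 of its 6094 UMIs. The stress genes Hspa1a and Fos had factors of 18.1 and 16.5, and the abundant actin gene Actb 12.5. The interferon-stimulated genes Isg15, Ifit1 and Ifit3 reached 10 UMIs together in 45 cells, or 9.53% (7.04% to 12.5%).

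**Figure D4:**
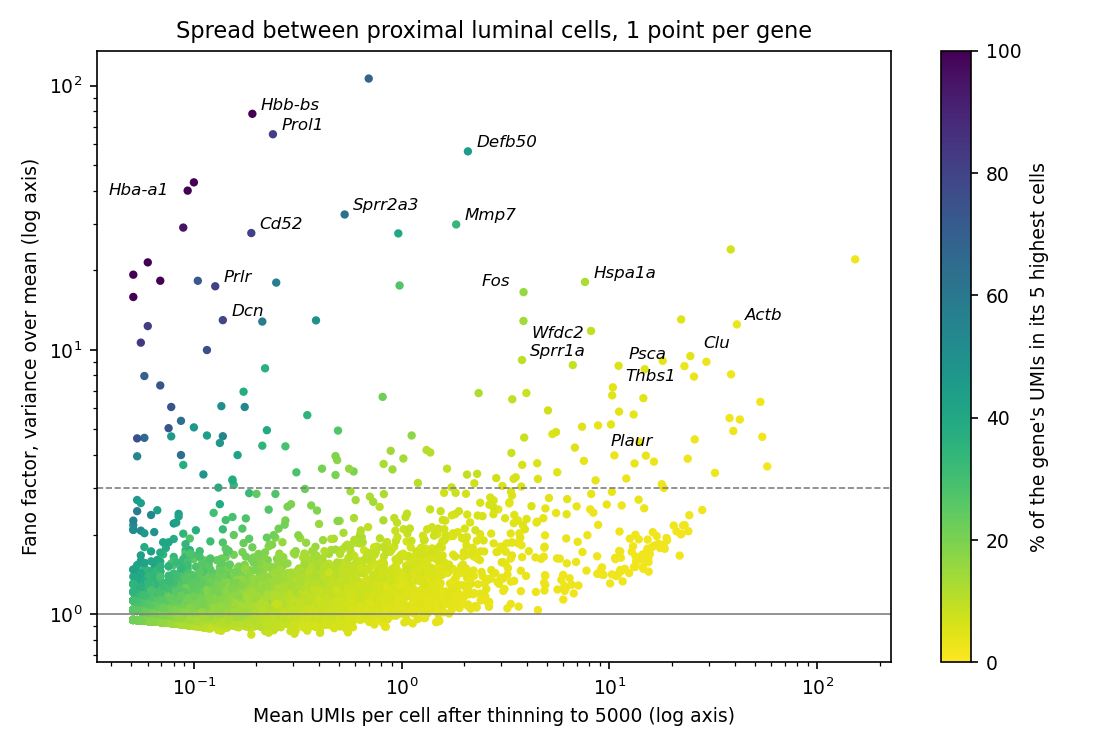
Fano factor against mean UMIs per cell after thinning to 5000 UMIs, both on log axes, for 7702 genes of the proximal luminal cells. Colour gives the share of a gene's UMIs in its 5 highest cells: Hbb-bs, Prol1 and Cd52 are dark, with most of their UMIs in a few cells, while Actb, Clu and Hspa1a are light and spread over many.

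One pattern across the cells set a group of genes, among them cytoskeletal, junction and surface genes, against immediate-early genes and Txnip. Actb, Actg1, Plaur, Thbs1, Cldn4, Krt8, F3, Lgals3 and S100a6 were positively correlated in all 36 pairs, with r from 0.31 to 0.72 and a median of 0.57. Each was negatively correlated with Fos, Egr1, Jun, Junb and Txnip in all 45 pairs, with r from -0.62 to -0.18. The pair Plaur and Krt8 reached 0.70, Fos and Egr1 0.66, and Plaur and Txnip -0.62. These 14 genes were chosen after their correlations had been seen. Plaur ranged from 0 UMIs at the 10th percentile of cells through a median of 8 to 18 at the 90th, and Fos from 0 through 1 to 10.2. In the 566 thinned neighbours, which the choice did not use, the same pairs had medians of 0.55 and -0.45. In 792 thinned basal cells the medians were 0.29 and -0.26, and Plaur with Krt8 was at 0.08. All points share 1 library and a fixed depth of 5000 UMIs. Actb had r of -0.40 with the mitochondrial share of a cell and 0.19 with the log of its total UMIs, and the part of cell quality in the pattern was not tested.

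**Figure D5:**
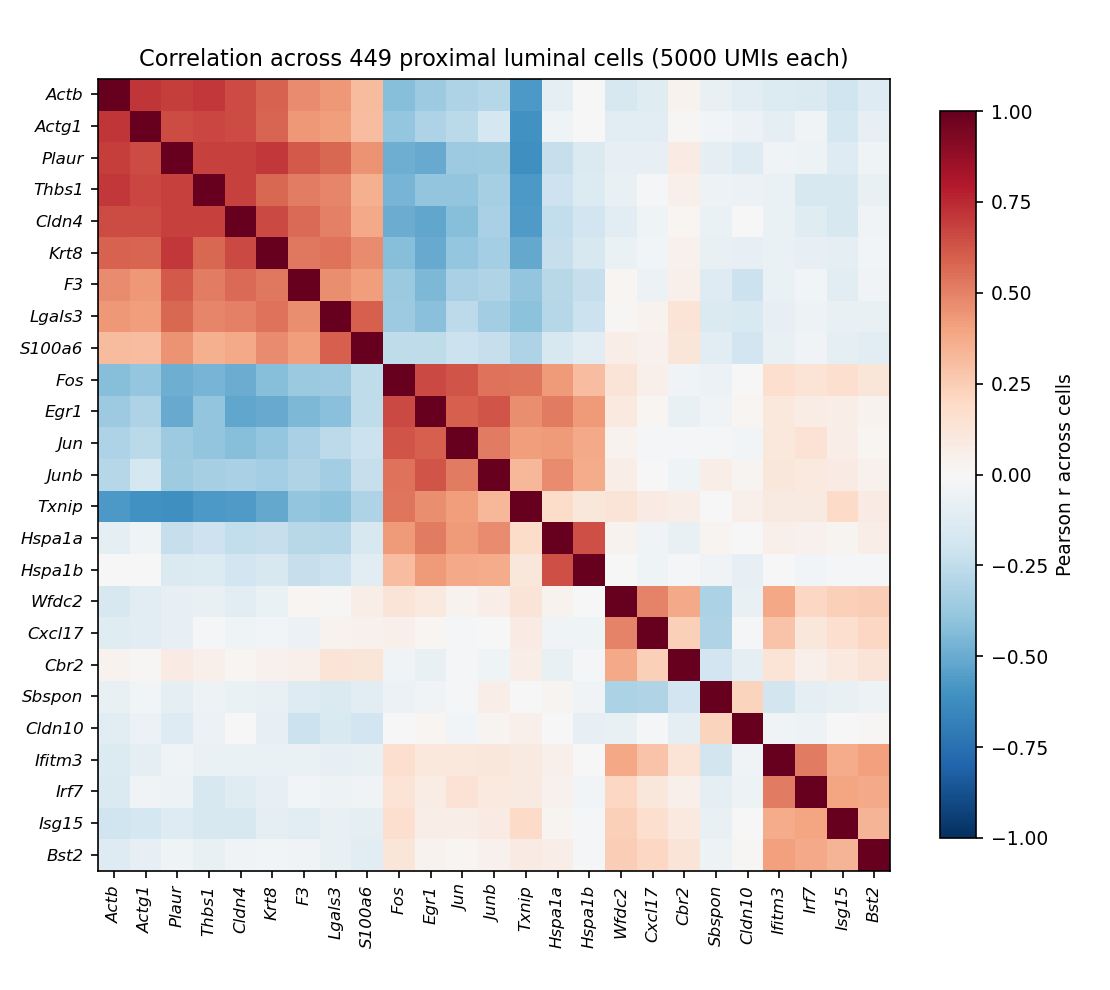
Pearson's r across 449 proximal luminal cells of log counts at 5000 UMIs, for 25 genes. The block from Actb to S100a6 is positive, the block from Fos to Txnip is positive, their crossing is negative, and smaller blocks join Hspa1a with Hspa1b, Wfdc2 with Cxcl17 and Cbr2, and Ifitm3 with Irf7, Isg15 and Bst2.

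The upstream sequence of genes in this pattern is shown because these genes varied together from cell to cell. RefSeq sequences on GRCm38.p6 were held for 11 of the 14 genes, and 250 bases before the start site were searched on both strands for TGANTCA, the core of AP-1 sites, for TATAAA, and for the CArG box of serum response elements, which can itself contain TATAAA. Of all 32851 promoters in the table, 6.75% held the first, 12.4% the second and 1.47% the third. The AP-1 core was found in Plaur, Cldn4 and F3, TATAAA in Fos, and the CArG box in Actg1. A match is a description of the letters only. Shown are those of the 14 with a match and no annotated exon in the window, and Arl14 as a gene high in the members that was not among the 14. Arl14 had r of 0.35 with Plaur and -0.24 with Fos. Capitals mark the AP-1 core or TATAAA, and each line ends at the base before the start site. The window of Plaur is chr7:24462233-24462482 on the plus strand, that of Cldn4 chr5:134946935-134947184 on the minus strand, that of Fos chr12:85473640-85473889 on the plus strand and that of Arl14 chr3:69222169-69222418 on the plus strand.
Plaur: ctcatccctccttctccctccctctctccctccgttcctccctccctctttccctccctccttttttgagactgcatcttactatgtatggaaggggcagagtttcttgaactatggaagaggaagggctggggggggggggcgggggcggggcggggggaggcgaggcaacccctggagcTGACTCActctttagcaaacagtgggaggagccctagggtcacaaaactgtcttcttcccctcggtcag
Cldn4: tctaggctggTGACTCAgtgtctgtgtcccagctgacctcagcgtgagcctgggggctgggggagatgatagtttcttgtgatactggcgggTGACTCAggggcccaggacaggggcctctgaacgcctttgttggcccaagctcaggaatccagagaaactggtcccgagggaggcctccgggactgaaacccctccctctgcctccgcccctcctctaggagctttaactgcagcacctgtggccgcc
Fos: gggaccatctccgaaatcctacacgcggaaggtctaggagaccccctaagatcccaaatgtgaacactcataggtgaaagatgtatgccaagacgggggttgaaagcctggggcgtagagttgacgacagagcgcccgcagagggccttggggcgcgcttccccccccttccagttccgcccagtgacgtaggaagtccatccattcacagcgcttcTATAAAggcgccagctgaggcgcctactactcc
Arl14: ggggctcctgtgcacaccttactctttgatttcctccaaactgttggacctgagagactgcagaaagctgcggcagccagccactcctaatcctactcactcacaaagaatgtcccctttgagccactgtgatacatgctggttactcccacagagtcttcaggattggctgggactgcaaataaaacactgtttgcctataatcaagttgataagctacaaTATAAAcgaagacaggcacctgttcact
In Plaur the core began 69 bases before the start, and Cldn4 held 2 copies, the farther one 240 bases before it. TATAAA began 33 bases before the start in Fos and 28 bases before it in Arl14. Of the 20 genes furthest above both other groups, 16 were in the table, and 0 held the AP-1 core, 3 TATAAA and 2 the CArG box.

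Smaller sets of genes also varied together. Wfdc2 had r of 0.50 with the chemokine gene Cxcl17, 0.38 with the interferon-induced gene Ifitm3 and 0.38 with Cbr2, and -0.32 with Sbspon. The first 3 values were 0.40, 0.17 and 0.32 in the neighbours and -0.01, -0.15 and -0.04 in basal cells. Cxcl17 had very few UMIs in basal cells, so its r there says little. Wfdc2 and Cxcl17 had r of 0.39 and 0.40 with the mitochondrial share, whose part was not tested. Hspa1a and Hspa1b, heat-shock genes of near-identical sequence whose reads cannot be told apart with certainty, had r of 0.64. Ifitm3 and Irf7, interferon-stimulated genes, had r of 0.52. Clu and Psca had r of 0.23 with each other. Clu had r of 0.09 with Plaur. Psca had r of 0.34 with Lgals3, 0.33 with S100a6, 0.31 with Krt8 and -0.17 with Egr1. The rule used Psca to choose the cells, which shapes its correlations here, so nothing is read from them.

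In the ventral library the same rule gave 23 of 1995 kept cells, 1.15% (0.732% to 1.72%), with a median of 14041 UMIs. Their Sbp and Spink1 share was between 0.987% and 1.70%, with a median of 1.22%, against a median of 0.114% in the members. The 2 libraries shared 0 cell barcodes. Between the proximal and ventral cells of this rule, 154 of 10857 genes stood at least 4-fold above the ventral level (1.42%) and 75 at least 4-fold below it (0.691%). Plaur was at 1919 CPM in the proximal and 93.4 CPM in the ventral cells, a 20.5-fold ratio (14.3 to 30.7), while Fos was at 677 CPM and 3537 CPM. Arl14 was at 190.1 CPM with 0 UMIs in the ventral cells, at least 19.7-fold higher against a floor of 3 counts over the group. The contractile-protein regulator Cald1 was at least 22.8-fold higher by the same floor.

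Other genes were higher in the ventral cells. Pigr was at 747 CPM against 46.2 CPM, 16.2-fold (13.9 to 18.8). Cxcl17 was at 934 CPM against 68.8 CPM, Wfdc2 at 3086 CPM against 645 CPM and Cbr2 at 4622 CPM against 714 CPM. Hes1, a Notch target, was at 2583 CPM against 335 CPM. Clu was at 2313 CPM in the ventral and 5171 CPM in the proximal cells. Psca, which the rule used in both, was at 264 and 2968 CPM. The marker minimum was on the sum of Psca, Krt4 and Ppp1r1b, and the ventral Psca level alone lies below it. The ventral cells as a group therefore met the minimum mostly through Krt4 and Ppp1r1b, and the proximal cells mostly through Psca. Because these genes chose the cells, nothing is read from the Psca difference. With 23 cells a single cell can weigh heavily: the highest cell held 23.4% of the ventral UMIs of Spink5 and 14.8% of those of Cxcl17. All 3 ventral UMIs of Sprr1a came from 1 cell. With Sbp and Spink1 limited to 1%, 2 ventral cells were left, so this comparison rests on that limit.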

How the data were processed

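Both libraries came from papain and TrypLE digestion and 10x Genomics capture, per the labels' protocols. The deposited files hold UMI counts per gene and barcode, made by the authors with Cell Ranger 7.0.0 on mm10, per the submitters' processing notes, and list 32285 genes. Python 3.11.15, numpy 2.4.6, scipy 1.17.1, pandas 2.3.3 and matplotlib 3.10.9 were used. Kept cells had at least 500 genes and at most 10% mitochondrial UMIs (3709 proximal, 1995 ventral). No doublets were removed. The members, gene lists and comparisons were chosen with earlier results of these data known.

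UMIs were summed per group of cells. CPM have exact Poisson intervals, shares Clopper-Pearson intervals, and ratios exact conditional intervals. A gene at least 4-fold apart had a log2 ratio of CPM plus 10 of at least 2 or at most -2, among genes with at least 50 UMIs over both groups. Named genes were the 20 of highest CPM, the 20 furthest above basal and secretory cells, the 10 highest and 10 lowest per comparison, the 25 highest Fano factors with their correlated genes, and list genes. The bins by basal keratin share, the neighbours and the co-varying genes were chosen after their values were seen. Mitochondrial and ribosomal protein genes were left out of all rankings, and Gm-number, Rik, immunoglobulin and T cell receptor genes of all but that by CPM. The scripts were tested on simulated counts in which 200 of 32285 genes differed 8-fold. The sign was right for 100% in each comparison, and 73%, 60% and 77% passed 4-fold in the basal, secretory and ventral simulations. Among 7494 genes simulated without extra spread, 0 reached a Fano factor of 3.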

Additional observations from a re-analysis of the deposited data

How the results depend on the processing

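No paired analysis was possible because each region has 1 library, so no replicate could be left out either. Of the proximal library's kept cells, the share chosen (12.7%) was 10.7% with at most 5% mitochondrial UMIs, 9.03% with a marker minimum of 10 UMIs and 0.2%, 10.5% without cells over 2.5 times the median depth, and 28.6% with Krt15 left out of the basal limit, an alternative added after seeing the data. With a pseudocount of 1 CPM, the genes at least 4-fold higher and lower numbered 413 and 533 against basal cells, 1054 and 355 against secretory cells, and 1378 and 292 against the ventral cells. The ventral comparison, with 154 genes higher, gave 277 under the mitochondrial limit (9 ventral cells), 351 under the marker minimum (6 ventral cells), 903 higher and 368 lower with Sbp and Spink1 at most 1% (2 ventral cells), and 64 without genes that had over 20% of their UMIs in 1 cell, also an added alternative. Genes with a Fano factor of at least 3 (139) numbered 50 after thinning to 2000 UMIs and 57 without the top 5 cells of each gene. The remaining alternatives kept each count within 1.5 times and the share within its interval. Under 3 other choices of cells or of averaging, the CPM of 39 named genes moved by at most 1.49 times. Depth limits genes seen in few cells.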
